A study of Rattus norvegicus with 24 samples.

Results

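The in utero oxycodone (IUO) lineage was compared with the saline lineage (SAL) in the nucleus accumbens (NAc) of rat pups at postnatal day 14 (P14), with the F1 and F2 generations in a single model. The effect described is the IUO minus SAL difference that F1 and F2 share, after the mean difference between generations is removed. It rests on 16 of the 24 RNA-Seq libraries of the series, 8 IUO and 8 SAL, with 4 from each generation on each side. Genes entered when their level was at least 1 FPKM (a read level scaled to transcript length and library size) in 8 or more of the 16 libraries, which kept 13556 of the 23950 genes listed.

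All pups were Sprague Dawley rats, and the replicates of a group came from separate litters. IUO F0 dams were gavaged with oxycodone (oxy) at 10 mg/kg/day for 5 days. The dose was then raised by 0.5 mg/kg/day over 10 days to 15 mg/kg/day, which was kept up through mating, pregnancy and nursing until weaning. F1 IUO pups were therefore still nursed by a dosed dam at P14. F2 IUO pups were born to F1 IUO females that received no drug of their own and were bred with naive males. SAL pups of each generation came from the saline-treated line. Pups of either sex were taken at random, and which were male is not stated.

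The NAc is the ventral part of the striatum and a target of midbrain dopamine neurons in reward. Nearly all its neurons are GABAergic projection neurons that carry either the D1 or the D2 dopamine receptor, mixed with a few classes of interneuron. Oxy acts on the mu opioid receptor, which these neurons and their inputs carry. At P14 the striatum is still gaining synapses, and myelin formation and glial maturation are under way.

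The libraries carried the marks of striatum. DARPP-32 (Ppp1r1b), which relays dopamine signals in projection neurons, was between 167 and 549 FPKM in the 16 libraries, and the enkephalin precursor Penk was between 81.5 and 326 FPKM. Markers of cortical excitatory neurons were present as well. The vesicular glutamate transporter Slc17a7 was between 135 and 277 FPKM in the IUO libraries and between 3.94 and 271 FPKM in the SAL libraries. F1 SAL replicates 2 and 3 were lowest on the mean log2 level of the 10 cortical markers, which ran from 2.82 to 3.84 in IUO and from 0.741 to 3.64 in SAL. Y-linked genes summed to more than 10 FPKM in 4 of 8 IUO and 4 of 8 SAL libraries. By group, that was 1 of 4 for F1 IUO, 3 of 4 for F2 IUO, 4 of 4 for F1 SAL and 0 of 4 for F2 SAL. F2 IUO replicate 4 stood apart on the leading principal component, which held 22.0% of the variance. The FPKM sums did not differ between IUO and SAL beyond their spread (exact permutation p = 0.862, two-sided), and the number of reads behind them is unknown.

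The shared effect was small for most genes, and no gene stood out from the whole. By limma on log2(FPKM + 0.1), 0 of 13556 genes (0%) had a Benjamini-Hochberg adjusted p under 0.05, and the smallest adjusted p was 0.481. Without adjustment, 1071 genes (7.9%) had p under 0.05, of which 493 (3.64%) were higher and 578 (4.26%) lower in IUO. The median log2 fold change of all genes was -0.02, the median standard error 0.141, and 44.4% of genes had a value above 0. Unadjusted p under 0.05 together with a change of at least 1.5-fold was met by 204 genes (1.5%), 71 higher (0.524%) and 133 lower (0.981%) in IUO. Of the 204, 136 had a mean under 5 FPKM, while 9092 of all 13556 genes had a mean of at least 5 FPKM. The naming rule passed over 84 of the 204 for a clone, locus, predicted, Rfam or mitochondrial name. Among these 84 were 18 Rfam entries, of 149 tested. The share of such names over all genes was not computed. With libraries weighted by their quality in limma, the split was 96 higher and 96 lower. With a mean of at least 5 FPKM required, it was 37 higher and 34 lower. In this fit the adjusted p of every gene tested was 0.481 or more, so "higher" and "lower" describe these libraries and not a change that passed the correction.

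**Figure D1:**
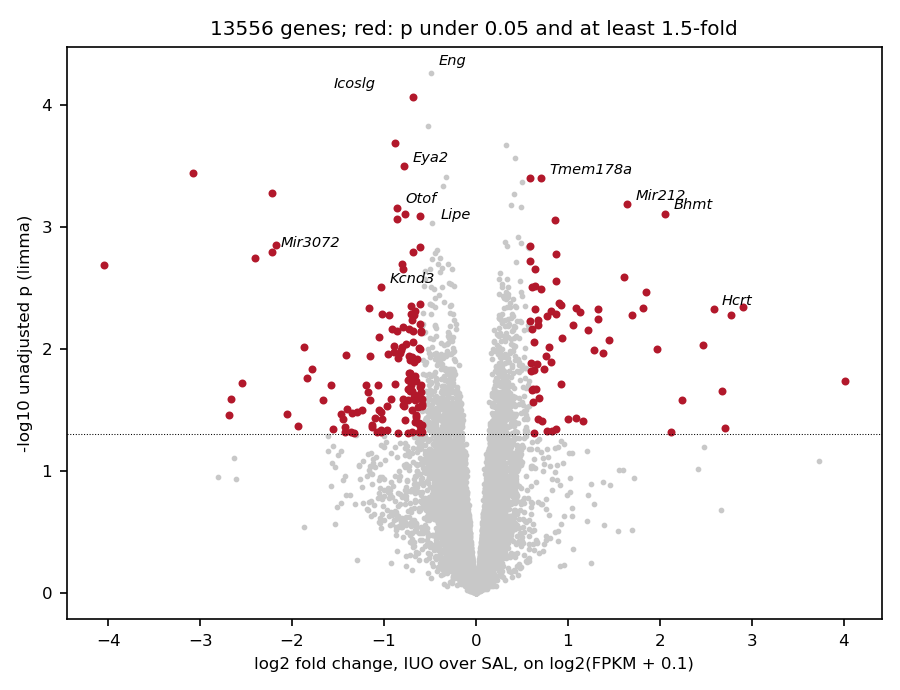
Each point is 1 of 13556 genes, placed by its log2 fold change (IUO over SAL, on the log2(FPKM + 0.1) scale) and the -log10 of its unadjusted limma p, and the dotted line marks a p of 0.05. The 204 red genes pass p and the 1.5-fold limit, with 133 on the lower side and 71 on the higher side, and Eng lies highest although its change is under 1.5-fold.

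In 4 genes (0.0295% of those tested) the 8 IUO and the 8 SAL libraries did not overlap. They were Eng, Icoslg and Lipe, all lower in IUO (0.0221%), and Mir212, higher in IUO (0.00738%). Eng and Lipe fall outside the rule used to name genes and were chosen after their values were seen. Eng encodes endoglin, a co-receptor for TGF-beta ligands on endothelial cells. Eng was between 11.3 and 16.1 FPKM in IUO, with a median of 14.3, and between 17.2 and 22.9 FPKM in SAL, with a median of 19.8. Both generations lay on the same side, and the log2 fold change was -0.49 (SE 0.0916, limma adjusted p = 0.481). Icoslg encodes the ligand of the T-cell costimulator ICOS. It was between 1.61 and 2.84 FPKM in IUO, with a median of 2.33, against 3.27 to 4.72 FPKM in SAL, with a median of 3.52. F1 IUO replicate 1 was the lowest of the 16, and the log2 fold change was -0.69 (SE 0.133, limma adjusted p = 0.481). Lipe encodes hormone-sensitive lipase, which releases fatty acids from stored fat. Its level was 2.11 to 3.06 FPKM in IUO, median 2.84, and 3.17 to 4.82 FPKM in SAL, median 3.76. The gap between the groups was narrow, and the log2 fold change was -0.48 (SE 0.119, limma adjusted p = 0.504). Since these 4 genes were picked for the separation itself, their permutation p is fixed and is not given. The interaction with generation had unadjusted p between 0.245 and 0.909 for these genes.

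**Figure D2:**
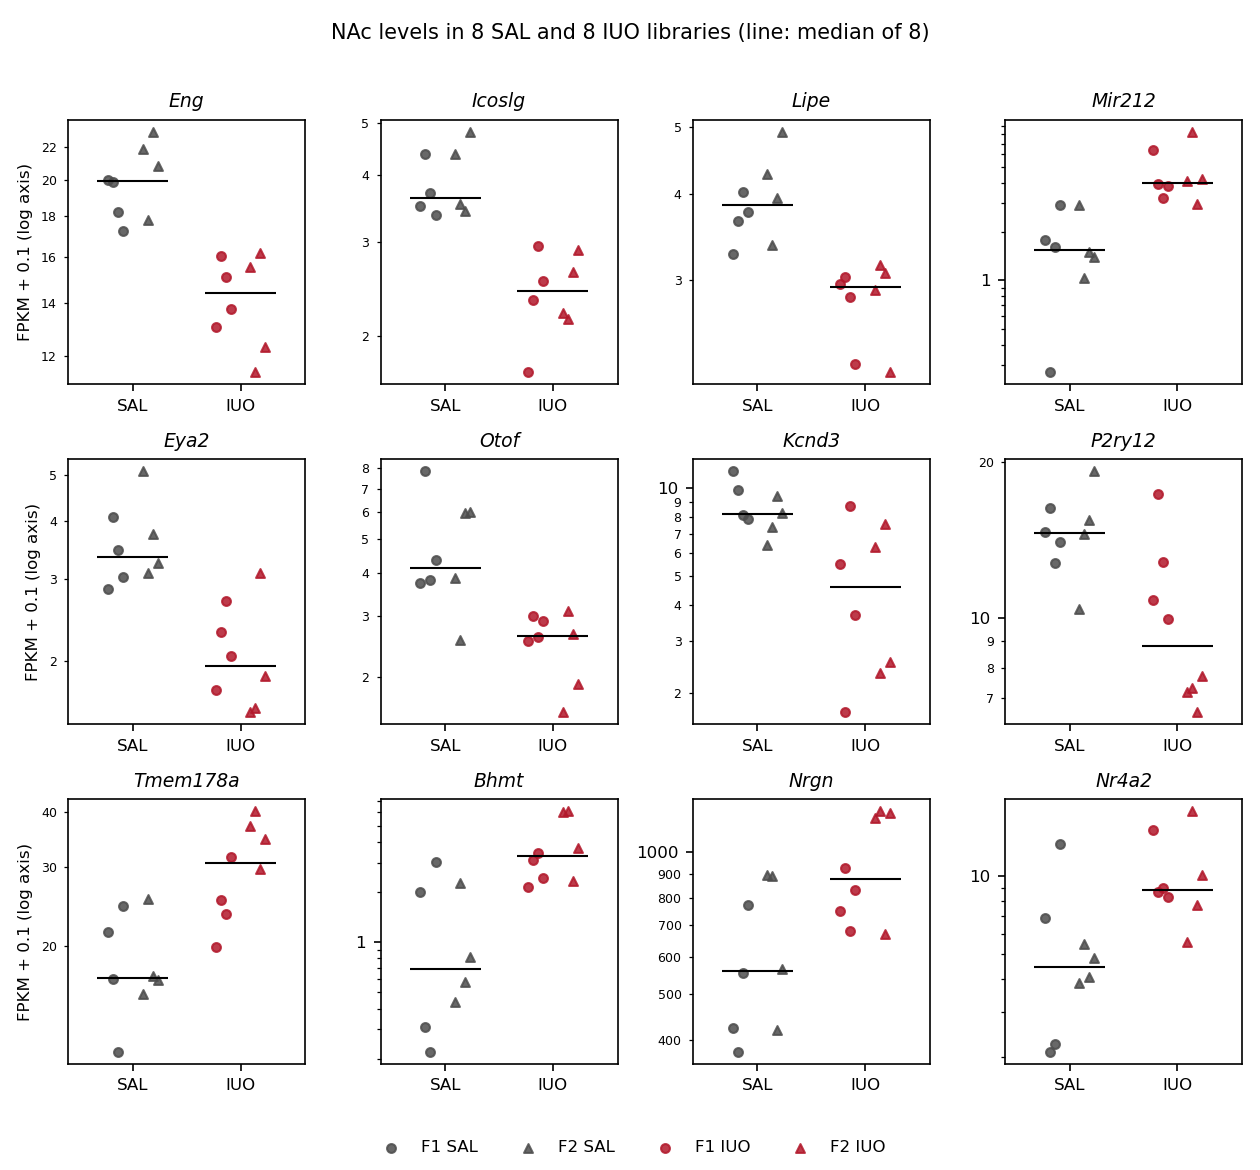
FPKM + 0.1 on a log axis for 12 genes, with 1 point for each of the 8 SAL (grey) and 8 IUO (red) libraries, circles for F1, triangles for F2 and a line at the median of 8. Eng, Icoslg, Lipe and Mir212 do not overlap between groups, while the other 8 genes overlap in at least 1 library.

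The named genes with the smallest p on the higher side ranged from transcription factors to synaptic and metabolic genes. Bhmt, betaine-homocysteine methyltransferase of the methionine cycle, was between 2.05 and 6 FPKM in IUO, median 3.18, and between 0.12 and 2.93 FPKM in SAL, median 0.595. All 8 IUO libraries lay above the SAL median and 5 lay above every SAL library, with a log2 fold change of 2.06 (SE 0.502, limma p = 0.000776, exact permutation p = 0.00286). The transmembrane protein gene Tmem178a was 19.8 to 40.0 FPKM in IUO, median 30.6, and 11.5 to 25.4 FPKM in SAL, median 16.9. Here too 5 IUO libraries exceeded all SAL libraries, and the log2 fold change was 0.70 (SE 0.1597, limma p = 4.00e-04, exact permutation p = 0.00286, adjusted p = 0.481). Nrgn encodes neurogranin, a calmodulin-binding protein of dendritic spines, and was by far the most abundant of these genes. Nrgn was 670 to 1223 FPKM in IUO, median 879, and 377 to 895 FPKM in SAL, median 560. The groups overlapped, 4 IUO libraries lay above every SAL library, and the log2 fold change was 0.65 (SE 0.186, limma p = 0.00305, exact permutation p = 0.0106).

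The nuclear receptor gene Nr4a2 (Nurr1) is induced by neuronal activity and needed by midbrain dopamine neurons. Nr4a2 was 5.49 to 17.7 FPKM in IUO, median 8.74, and 2 to 13.2 FPKM in SAL, median 4.36, with a log2 fold change of 1.09 (SE 0.333, limma p = 0.00458, exact permutation p = 0.0114). All IUO libraries were above the SAL median, but F1 SAL replicates 1 and 4 lay within the IUO range. The neurotensin receptor gene Ntsr1 was 1.66 to 4.18 FPKM in IUO and 0.29 to 2.66 FPKM in SAL (log2 fold change 1.33, SE 0.406, limma p = 0.00467, exact permutation p = 0.0135). Just 2 IUO libraries exceeded every SAL library, although all 8 were above the SAL median. Of the others named on this side, Gldn (gliomedin, of the nodes of Ranvier) was higher by 0.87 on the log2 scale, Ppidl1 by 0.91, Fam126b by 0.71, Tshz3 (a zinc finger transcription factor) by 0.64, Gzmm (granzyme M) by 0.61 and Rfesd by 0.59. Each of these 6 had between 3 and 6 IUO libraries above every SAL library.

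On the lower side, Eya2, a transcriptional coactivator with phosphatase activity, came next after Icoslg. Eya2 was 1.45 to 2.99 FPKM in IUO, median 1.85, and 2.75 to 5.00 FPKM in SAL, median 3.25. Only F2 IUO replicate 3 reached the SAL range, and the log2 fold change was -0.78 (SE 0.172, limma p = 0.000316, exact permutation p = 0.000816). Otof encodes otoferlin, a calcium sensor of vesicle release. Otof was 1.49 to 3.01 FPKM in IUO, median 2.54, against 2.47 to 7.74 FPKM in SAL, median 4.02. The 8 IUO libraries were all under the SAL median, and the log2 fold change was -0.86 (SE 0.208, limma p = 0.000694, exact permutation p = 0.00122). Kcnd3 encodes Kv4.3, an A-type potassium channel that delays firing. Kcnd3 was 1.62 to 8.58 FPKM in IUO, median 4.51, and 6.29 to 11.3 FPKM in SAL, median 8.07. It was scattered among the IUO libraries, where 6 lay under every SAL library and replicate 3 of each generation was within the SAL range, with a log2 fold change of -1.03 (SE 0.298, limma p = 0.00311, exact permutation p = 0.00694).

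P2ry12, the ADP receptor that guides microglial processes, was 6.47 to 17.2 FPKM in IUO, median 8.74, and 10.3 to 19.1 FPKM in SAL, median 14.5. The 4 F2 IUO libraries and F1 IUO replicate 4 were below every SAL library, and the shared log2 fold change was -0.61 (SE 0.161, limma p = 0.00146, exact permutation p = 0.00531). Its interaction with generation had an unadjusted p of 0.00683 and an adjusted p of 0.866. The transcription factor gene Creb3l2, cut and released from the endoplasmic reticulum, was 0.77 to 2.90 FPKM in IUO and 2.18 to 3.47 FPKM in SAL (log2 fold change -0.61, SE 0.184, limma p = 0.0043, exact permutation p = 0.000816). Gfpt2, which opens the hexosamine pathway, was 0.57 to 1.76 FPKM in IUO and 1.66 to 2.50 FPKM in SAL (log2 fold change -0.67, SE 0.208, limma p = 0.00526, exact permutation p = 0.00163). In Gfpt2 6 IUO libraries, and in Creb3l2 5, were under all SAL libraries. The Mediator subunit gene Med8 was lower by 0.61 on the log2 scale, the cation channel gene Trpc7 by 0.68, Prr22 by 0.79, the scramblase gene Xkr8 by 0.70 and the peroxisomal membrane protein gene Pxmp4 by 0.71. Between 3 and 6 IUO libraries were under all SAL libraries in each of these 5 genes.

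Of the 30 genes named by p and fold, 28 had an unadjusted p under 0.05 in every alternative that tested them. Where a mean of at least 5 FPKM was required, those below it were not tested. The 30 were chosen for small p in these same libraries, so a p under 0.05 on refitting is not independent evidence. The same holds for their exact permutation p, and for that of list genes named for p under 0.05. The exceptions were Nr4a2 and Tshz3 in the fit with the mean level of the cortical markers as a covariate, which was added once the values had been seen. There the log2 fold change was 0.56 for Nr4a2 and 0.33 for Tshz3, and p exceeded 0.05. In the same fit Bhmt, at 1.14, and Tmem178a, at 0.47, had smaller log2 fold changes than without the covariate. Of the 204 genes past p and fold, 133 had p under 0.05 with that covariate, and 167 without F2 IUO replicate 4.

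MicroRNA genes made up 7 of the 204 genes past p and fold. A microRNA is cut from a hairpin precursor and represses mRNAs that pair with bases 2 to 8 of its mature strand, the seed. Of 30 microRNA genes tested, 7 (23.3%) passed p and fold, 1 higher and 6 lower in IUO, against 1.5% of all genes. The same 7 were those with unadjusted p under 0.05, where the share of all genes was 7.9%, and the difference in shares was not tested. These are short genes at low levels in libraries made from total RNA. Their median standard error was 0.471 on the log2 scale, against 0.141 for all genes, and mature microRNAs were not measured. Over the 30 genes the median log2 fold change was -0.26, with 12 above and 18 below 0. The mature strands of the genes described next are printed from RefSeq (build GRCr8), with the seed in capitals, since the seed says which targets and which relatives a microRNA has. RefSeq entries were found for 6 of the 7, all but Mir3072.

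rno-miR-212-3p: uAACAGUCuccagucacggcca
rno-miR-212-5p: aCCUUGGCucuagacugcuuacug
rno-miR-132-3p: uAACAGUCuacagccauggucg
rno-let-7b-5p: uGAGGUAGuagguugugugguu
rno-miR-9b-3p: aUACAGCUagauaaccaa
rno-miR-760-3p: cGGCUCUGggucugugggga
rno-miR-29b-3p: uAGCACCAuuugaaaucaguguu
rno-miR-138-5p: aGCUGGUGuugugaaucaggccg

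Mir212, induced by CREB in neurons, was 2.86 to 8.20 FPKM in IUO, median 3.92, and 0.17 to 2.83 FPKM in SAL, median 1.45. The lowest IUO library was only just above the highest SAL library, and the log2 fold change was 1.65 (SE 0.394, limma adjusted p = 0.495). Mir132, whose mature 3p strand has the same seed AACAGUC as miR-212-3p, was chosen for this reason after its values were seen. Mir132 was 0 to 7.34 FPKM in IUO, median 0.805, and 0.12 to 2.35 FPKM in SAL, median 1.18. It was spread so widely that the log2 fold change of 0.02 had a standard error of 0.717 (limma p = 0.981, exact permutation p = 0.982), and the sign turned without any of 8 single libraries. Mirlet7b, of the let-7 family that rises as neurons mature, was 1.80 to 9.63 FPKM in IUO, median 2.39, and 2.40 to 10.4 FPKM in SAL, median 6.20. All IUO libraries except F2 IUO replicate 2 were under the SAL median, and the log2 fold change was -0.94 (SE 0.293, limma p = 0.00529, exact permutation p = 0.0143). Mir3072 was 0.13 to 3.83 FPKM in IUO, median 1.5, and 2.39 to 13.5 FPKM in SAL, median 5.88. It had the largest fitted difference of the named genes that were lower, -2.22 on the log2 scale (SE 0.589, limma p = 0.00159, exact permutation p = 0.00286), with 4 IUO libraries under 0.6 FPKM. Mir3597-2, which yields miR-9b, was lower by 1.17 on the log2 scale (SE 0.357, limma p = 0.00464, exact permutation p = 0.0098). Mir760 was lower by 0.76 on the same scale (limma p = 0.00903, exact permutation p = 0.0175). Mir29b2 was lower by 1.13 (limma p = 0.0439, exact permutation p = 0.0498). Mir138-2 was lower by 1.03 (limma p = 0.0475, exact permutation p = 0.0759). These 3 were chosen after their values were seen. The last 2 lost an unadjusted p under 0.05 in 14 and 17 of the alternatives run.

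Gene lists are described by their counts and medians, beside 3.64% higher and 4.26% lower at unadjusted p under 0.05 and the median of -0.02 over all genes. For 8 of the list genes named below with limma p under 0.05, the exact permutation p was above 0.05 (Drd1, Pnoc, Klf4, Gpr17, Mt-nd4l, Gabra5, Grm4 and Gnas). These 8 also lost limma p under 0.05 in between 9 (Drd1) and 18 (Mt-nd4l) of the alternatives run. Gnal, Neurod6 and Rpl9 lost it in 0. All 17 tested genes of striatal projection neurons and dopamine signalling had a log2 fold change below 0, with a median of -0.24, but only 2 had p under 0.05. Gnal encodes the G protein alpha subunit that couples the D1 receptor to adenylyl cyclase. Gnal was 37.8 to 103 FPKM in IUO, median 54.4, and 70.04 to 114 FPKM in SAL, median 81.4. The 4 F2 IUO libraries and F1 IUO replicate 4 were under every SAL library, and the log2 fold change was -0.46 (SE 0.133, limma p = 0.00324, exact permutation p = 0.00857). Its interaction with generation had an unadjusted p of 0.0417. Drd1, the D1 receptor gene, was 6.87 to 21.7 FPKM in IUO, median 15.0, and 13.8 to 27.2 FPKM in SAL, median 18.3 (log2 fold change -0.40, SE 0.175, limma p = 0.0357, exact permutation p = 0.0551).

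The other 15 projection neuron genes had p over 0.05. Drd2 had a log2 fold change of -0.24 (SE 0.268), the adenosine receptor gene Adora2a -0.19 (SE 0.244), Ppp1r1b -0.32 (SE 0.224) and the phosphodiesterase gene Pde10a -0.34 (SE 0.213). Leaving out each library in turn moved the list's median between -0.37 (without F1 SAL replicate 1) and -0.16 (without F2 IUO replicate 1). With the cortical covariate it was -0.10, and Drd1 no longer had p under 0.05. In whole tissue, fewer cells of a type and less RNA per cell cannot be told apart. Among 11 tested markers of striatal interneurons, Nos1, which marks the nitric oxide synthase class, was lower (log2 fold change -0.56, SE 0.247, limma p = 0.0385, exact permutation p = 0.031), and the other 10 had p over 0.05. The list median was -0.06.

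Cortical excitatory neuron markers lay mostly above 0. Their median log2 fold change was 0.86 over 10 genes, 3 with p under 0.05 and higher in IUO and 0 lower. Among the 3 were Fezf2, which specifies deep-layer output neurons, and Neurod6. Fezf2 was 5.33 to 25.1 FPKM in IUO, median 8.35, and 0.82 to 13.9 FPKM in SAL, median 2.95 (log2 fold change 1.45, SE 0.485, limma p = 0.00849, exact permutation p = 0.022). Neurod6 was 9.80 to 30.1 FPKM in IUO, median 16.6, and 1 to 20.8 FPKM in SAL, median 8.20 (log2 fold change 1.29, SE 0.444, limma p = 0.0102, exact permutation p = 0.0175). In both genes all IUO libraries were above the SAL median and 2 were above every SAL library. The difference lay at the bottom of the SAL range, where F1 SAL replicates 2 and 3 were lowest for Slc17a7 and Neurod6. The list's median was 0.33 without F1 SAL replicate 3 and 1.14 without F1 SAL replicate 4. Lamp5 and Rorb had log2 fold changes of -0.26 each. How far tissue from outside the NAc bears on the striatal and cortical values was not tested, beyond the fits with the cortical markers as a covariate.

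Opioid receptor and peptide genes gave small differences where they were tested. The mu receptor gene Oprm1 was not tested, being between 0 and 0.39 FPKM in IUO and between 0.03 and 0.46 FPKM in SAL. The delta receptor gene Oprd1 also missed the filter, at 0 to 2.34 FPKM in IUO and 0.56 to 1.69 FPKM in SAL. Of 6 tested, the nociceptin precursor Pnoc was higher, at 5.40 to 13.6 FPKM in IUO, median 8.37, against 6.15 to 8.55 FPKM in SAL, median 6.74 (log2 fold change 0.34, SE 0.148, limma p = 0.0375, exact permutation p = 0.0527). The largest log2 fold change of the 6 was that of the opioid and melanocortin precursor Pomc, 0.44 (SE 0.277), with p over 0.05. The nociceptin receptor gene Oprl1 had a log2 fold change of -0.16 (SE 0.134), the kappa receptor gene Oprk1 -0.08 (SE 0.192) and Penk -0.06 (SE 0.249). The dynorphin precursor Pdyn was 21.9 to 60.1 FPKM in IUO and 20.4 to 61.0 FPKM in SAL, with a log2 fold change of 0.01 (SE 0.231). The medians of Pdyn were 42.1 and 42.4 FPKM, and its sign depended on single libraries.

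The genes the study names, from its RNA-Seq and its RT-PCR work on these hits and on the hypocretin system, made a list of 15 entries. The study's alpha-globin gene Hba1 stands there as 2 entries for Hba-a2. Entries came from the study's RNA-Seq hits, except Hcrtr1, Hcrtr2, Nptx2 and Pdyn, which it took up to follow the hypocretin system. The list is not independent evidence of its direction. By RT-PCR the study reports Hcrtr1, Nptx2 and Pdyn as higher in IUO than in saline in both generations. For F2 IUO animals it describes Avp as downregulated, citing RNA-Seq and RT-PCR. Of the 15 entries, 10 were tested, all 10 had a log2 fold change above 0, and the median was 0.52. Only 3 had p under 0.05, all higher in IUO. They were Hcrt and the 2 Hba-a2 entries, which may share reads and are not separate results. Hcrt encodes hypocretin (orexin), a peptide of arousal and reward made by lateral hypothalamic neurons. Hcrt was 0.45 to 41.3 FPKM in IUO, median 9.22, and 0.26 to 2.54 FPKM in SAL, median 1.16. F1 IUO replicate 1 and F2 IUO replicate 4 were under the SAL median, while the other 6 were above every SAL library. The log2 fold change was 2.59 (SE 0.794, limma p = 0.00473, exact permutation p = 0.0155, adjusted p = 0.525). It was 2.12 with the cortical covariate and 2.40 with hypothalamus markers as a covariate, both with unadjusted p under 0.05. Most of the hypothalamus markers were under the filter on low values. The hypocretin receptor gene Hcrtr1 had a log2 fold change of 0.12 (SE 0.237, limma p = 0.611, exact permutation p = 0.629). Pmch, the melanin-concentrating hormone precursor of the same hypothalamic region, missed the filter with 5 libraries at 1 FPKM or more, all IUO. Pmch was 0 to 27.9 FPKM in IUO, median 8.06, and 0 to 0.88 FPKM in SAL, median 0.355, with an exact permutation p of 0.0449 (two-sided, unadjusted). The other 4 that were not tested had exact permutation p over 0.05. Of these, the second hypocretin receptor gene Hcrtr2 had a median of 0.465 FPKM in IUO and 0.89 FPKM in SAL. The cadherin gene Cdh1 had medians of 0.125 and 0.265 FPKM, the water channel gene Aqp1 of 0.37 and 0.545 FPKM, and Agrp (agouti-related peptide) of 1.08 and 0.675 FPKM, in the same order.

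F1 IUO replicate 1 and F2 IUO replicate 4, low for Hcrt, were also under 1 FPKM for Pmch. So was F2 IUO replicate 1, where Hcrt was 9.15 FPKM. The hypothalamic peptide genes Oxt (oxytocin) and Avp (vasopressin) overlapped widely. Oxt was 3.38 to 135 FPKM in IUO, median 22.3, and 0.55 to 56.9 FPKM in SAL, median 6.92 (log2 fold change 1.39, SE 0.853, limma p = 0.123, exact permutation p = 0.174). Avp was 3.97 to 85.6 FPKM in IUO, median 21.7, and 2.80 to 199 FPKM in SAL, median 9.90 (log2 fold change 0.42, SE 0.902, limma p = 0.65, exact permutation p = 0.683). F2 SAL replicates 3 and 4 held high values of both. With the cortical covariate the log2 fold change of Oxt was 2.28 and its unadjusted limma p fell under 0.05. Otp, a transcription factor of hypothalamic neurons, had a log2 fold change of 0.62 (SE 0.708), Nptx2, a synaptic pentraxin, of 0.23 (SE 0.224) and Tcf7l2, a thalamic transcription factor, of 0.18 (SE 0.637). None of these 3 passed p under 0.05. Of 14 other hypothalamus markers, 2 passed the filter on low values and neither had p under 0.05. The summed level of the 14 was 11.6 to 34.0 FPKM in IUO and 10.7 to 25.4 FPKM in SAL. The part of hypothalamic tissue in the Hcrt values was not tested. The fit with these markers as a covariate could not test it, since most of them were under the filter.

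**Figure D3:**
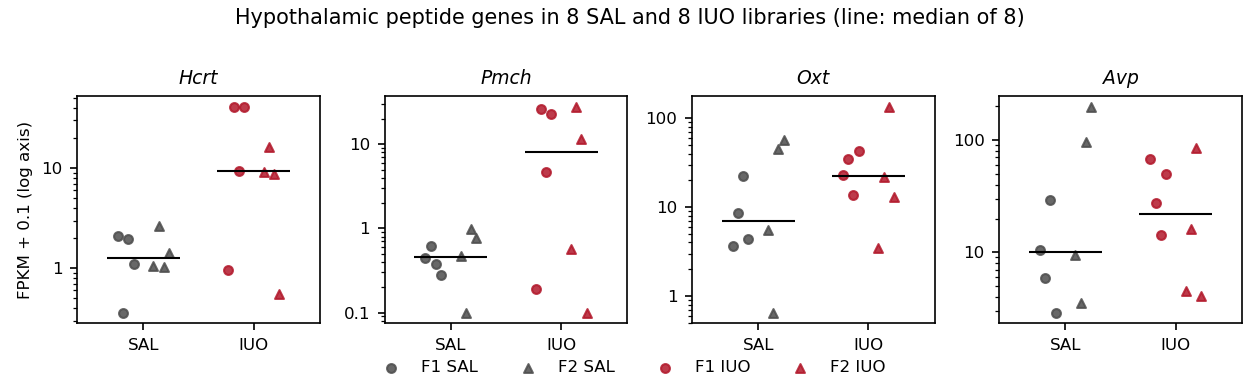
FPKM + 0.1 on a log axis for Hcrt, Pmch, Oxt and Avp in the 8 SAL (grey) and 8 IUO (red) libraries, circles for F1, triangles for F2 and a line at the median of 8. For Hcrt, 6 IUO libraries lie above the SAL maximum of 2.54 FPKM and 2 lie within the SAL range, while Oxt and Avp overlap widely.

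Erythroid genes were the remaining members of the study's list past p and fold. Both copies of the alpha-globin gene Hba-a2 were higher in IUO. They are near-identical paralogs whose reads the authors' counting could divide either way. The copy ENSRNOG00000047321 was 5.61 to 136 FPKM in IUO, median 26.9, and 2.97 to 27.3 FPKM in SAL, median 5.62 (log2 fold change 1.82, SE 0.556, limma p = 0.00459, exact permutation p = 0.0143). The copy ENSRNOG00000029886 was 14.8 to 248 FPKM in IUO, median 57.7, and 9.18 to 56.0 FPKM in SAL, median 11.6 (log2 fold change 1.70, SE 0.529, limma p = 0.00523, exact permutation p = 0.0135). F1 IUO replicate 2 held the highest value of the second copy, and F1 SAL replicate 4 was the highest SAL library. Hbb had a log2 fold change of 1.597 (SE 0.909, limma p = 0.0973, exact permutation p = 0.153). The summed level of the blood list was 27.3 to 410 FPKM in IUO and 13.0 to 88.6 FPKM in SAL, and blood left in the tissue and erythroid transcription cannot be told apart here.

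Immediate early genes, which neurons switch on within minutes of activity, leaned to the higher side. Of 21 tested, 16 had a log2 fold change above 0, the median was 0.27, 3 had p under 0.05 and were higher and 1 was lower. Besides Nr4a2 these were Ier5 (log2 fold change 0.43, SE 0.153, limma p = 0.0123, exact permutation p = 0.0196) and Ier2 (0.35, SE 0.146, limma p = 0.0293, exact permutation p = 0.0412). Klf4 was lower (log2 fold change -0.52, SE 0.238, limma p = 0.0434, exact permutation p = 0.0682). The members most used as activity markers had p over 0.05. Fos was 7.32 to 18.6 FPKM in IUO, median 12.1, and 6.39 to 12.03 FPKM in SAL, median 8.77 (log2 fold change 0.37, SE 0.202, limma p = 0.0854, exact permutation p = 0.123). Arc had a log2 fold change of 0.34 (SE 0.194), Egr1 of 0.20 (SE 0.152) and Npas4 of -0.03 (SE 0.338). The list's median stayed between 0.18 and 0.38 with any library left out and was 0.15 with the cortical covariate, under which Ier5 and Ier2 no longer had p under 0.05.

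Vascular, glial and mitochondrial lists differed little as groups. In 11 endothelial and mural genes the median was -0.17 and 10 were below 0, but only Tagln, a smooth muscle actin-binding protein, had p under 0.05. Tagln was 7.69 to 22.1 FPKM in IUO, median 16.04, and 16.7 to 31.2 FPKM in SAL, median 19.7 (log2 fold change -0.49, SE 0.197, limma p = 0.0236, exact permutation p = 0.0322). The interaction of Tagln with generation had an unadjusted limma p of 0.0365. The endothelial genes Cdh5 and Tek had log2 fold changes of -0.06 (SE 0.108) and -0.08 (SE 0.120). Both were nearer to 0 than Eng, and nearer than the median of their own list. Among 12 microglia genes, P2ry12 and the fractalkine receptor gene Cx3cr1 were lower. Cx3cr1 was 9.05 to 29.2 FPKM in IUO, median 17.985, and 18.7 to 29.7 FPKM in SAL, median 25.5 (log2 fold change -0.47, SE 0.193, limma p = 0.0263, exact permutation p = 0.0339), with 5 IUO libraries under all SAL libraries. The other 10 microglia genes had p over 0.05, and the list median was -0.01. Of 8 oligodendrocyte precursor genes, Gpr17 was lower (log2 fold change -0.33, SE 0.151, limma p = 0.0455, exact permutation p = 0.069). Its interaction with generation had an unadjusted limma p of 0.0174. In either direction, 0 of 16 myelin genes and 0 of 12 astrocyte genes had p under 0.05.

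Of 13 protein genes encoded in mitochondrial DNA, Mt-atp8 was lower (log2 fold change -0.59, SE 0.247, limma p = 0.029, exact permutation p = 0.0216) and so was Mt-nd4l (-0.51, SE 0.237, limma p = 0.0463, exact permutation p = 0.0518). Their list median of -0.13 was 0.02 without F1 IUO replicate 4, in which these genes held 17.0% of the FPKM sum, against 25.7% to 39.0% in the other IUO libraries and 30.9% to 36.6% in SAL. The nuclear genes of the respiratory chain had a median of 0.07 over 82 genes, with 64 above 0. Of these, Atp5po (log2 fold change 0.24, limma p = 0.0377, exact permutation p = 0.0318) and Ndufs3 (0.20, limma p = 0.0401, exact permutation p = 0.0416) were higher and Ndufc1 was lower (-0.30, limma p = 0.0175, exact permutation p = 0.0261). The interaction of Atp5po with generation had an unadjusted limma p of 0.0365.

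**Figure D4:**
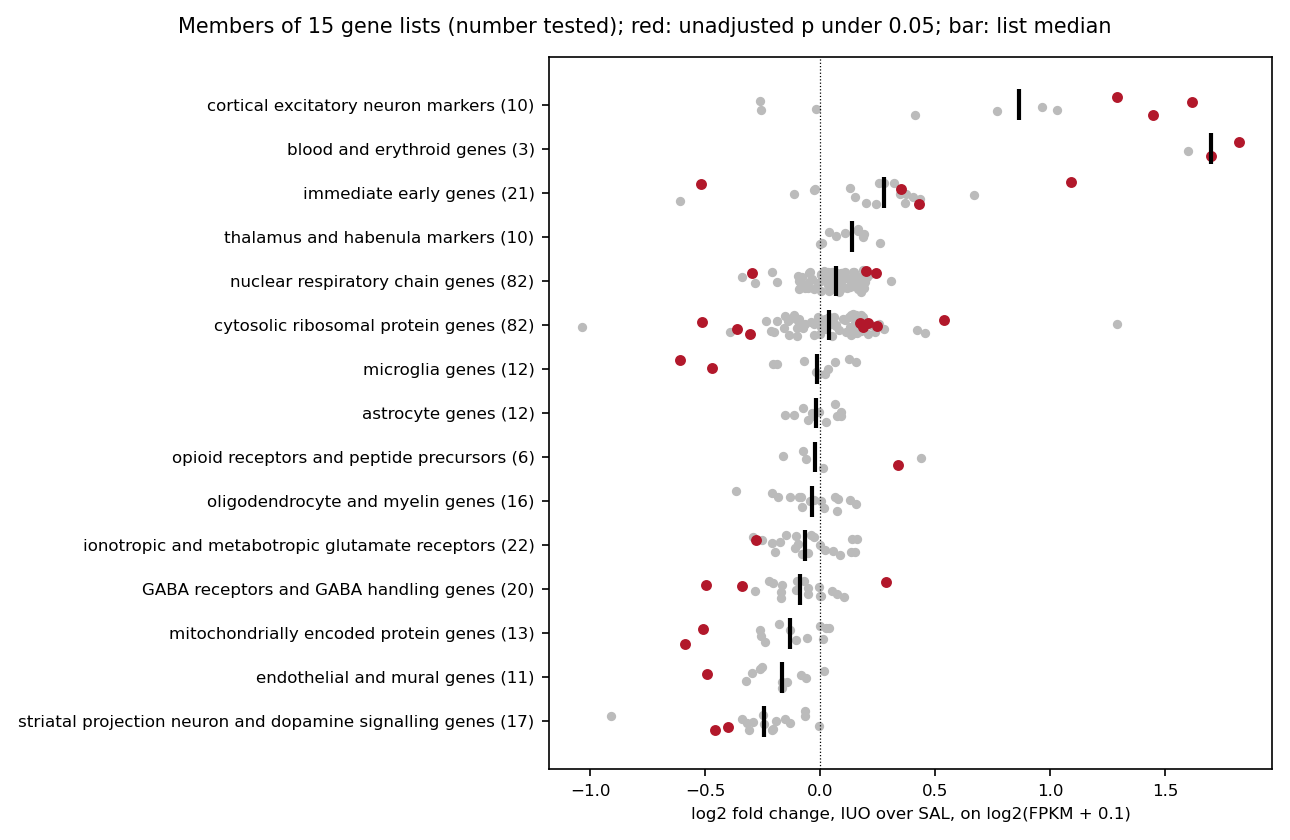
Log2 fold changes (IUO over SAL, on the log2(FPKM + 0.1) scale) of the tested members of 15 gene lists, 1 point for each gene, red where the unadjusted limma p is under 0.05, with a bar at the list median and the number tested in parentheses. Cortical markers (median 0.86) and blood genes (1.70) lie to the right, and the 17 striatal projection neuron genes all lie below 0 (median -0.24).

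Receptor and synaptic genes held few members past p under 0.05. Of 20 genes of GABA receptors and GABA handling, 15 were below 0. Among them the receptor subunits Gabrg3 (log2 fold change -0.50, SE 0.196, limma p = 0.0218, exact permutation p = 0.0269) and Gabrg1 (-0.34, SE 0.125, limma p = 0.0148, exact permutation p = 0.0229) were lower and Gabra5 was higher (0.29, SE 0.130, limma p = 0.042, exact permutation p = 0.0518). Of 22 glutamate receptor genes only Grm4 passed, lower by 0.28 on the log2 scale (limma p = 0.0429, exact permutation p = 0.062). Of 19 scaffolds of the postsynaptic density, Dlg3 (SAP102) was higher (log2 fold change 0.37, SE 0.153, limma p = 0.026, exact permutation p = 0.0441). In the perineuronal net list of 9, the link protein gene Hapln1 was higher (0.29, SE 0.121, limma p = 0.0279, exact permutation p = 0.0326).

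Regulators of rhythm, stress hormone response and DNA methylation held 1 gene each with unadjusted limma p under 0.05, of 16, 15 and 14 tested. Over all genes the share was 7.9%. Mbd2 lost this p in 16 of the alternatives run, Nr3c2 in 13 and Per3 in 0. The clock gene Per3 was lower among 16 (log2 fold change -0.44, SE 0.170, limma p = 0.0205, exact permutation p = 0.0171), the mineralocorticoid receptor gene Nr3c2 among 15 (-0.47, SE 0.206, limma p = 0.0367, exact permutation p = 0.0425) and the methyl-CpG binding protein gene Mbd2 among 14 (-0.20, SE 0.0947, limma p = 0.0486, exact permutation p = 0.0445). Of 19 imprinted genes, 1 of 2 entries for Gnas was higher (0.25, SE 0.114, limma p = 0.0412, exact permutation p = 0.0571), and the other had a log2 fold change of 0.15 (SE 0.103). Grb10 was lower (-0.53, SE 0.220, limma p = 0.0284, exact permutation p = 0.0322). Of 11 neuroblast genes, Dlx5 was lower (-0.43, SE 0.175, limma p = 0.0244, exact permutation p = 0.0425). Of 82 cytosolic ribosomal protein genes 5 were higher and 3 lower, among them Rpl9 (0.17, limma p = 0.0161, exact permutation p = 0.0098). Of 2 entries for Rpl7a, which may share reads, the lower had a log2 fold change of -0.36 (limma p = 0.0263, exact permutation p = 0.0404). Lists for histone deacetylases, cholesterol synthesis, endoplasmic reticulum stress, heat shock, cell cycle, interferon response, neurotrophins, meningeal, ependymal, septal, thalamic and choroid plexus genes had 0 members with limma p under 0.05, and 0 with adjusted p under 0.05. The choroid plexus sum ran from 6.81 to 12310 FPKM in IUO and from 6.45 to 5246 FPKM in SAL, high in a few libraries of both groups.

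The IUO libraries differed from each other more than the SAL libraries did. The distance of a library from the mean of the other 3 of its group, as a root mean square over the genes tested, was 0.467 to 0.847 on the log2 scale in IUO, median 0.640, and 0.445 to 0.543 in SAL, median 0.494. Here 6 of 8 IUO libraries lay above every SAL library, and F1 IUO replicates 2 and 3 lay within the SAL range. The distances were computed once from the true groups, and their labels were then exchanged within generations without computing them again. This gave an exact permutation p of 0.00571 (Benjamini-Hochberg 0.0171 over 3 library measures). The Y-linked genes were uniformly high or low within each SAL generation and mixed within each IUO generation, as given above, and the part of this in the spread was not tested. Distances within a group share libraries, so the 8 values of a side are not fully independent. The permutation p of the distances is therefore approximate. The within-group SD was larger in IUO for 71.6% of genes, with medians of 0.306 in IUO and 0.226 in SAL. Without F2 IUO replicate 4 these were 62.4% of genes, a median of 0.266 in IUO and p = 0.0118 (exact permutation test). Over the single libraries left out, the exact permutation p ran from 0.000408 to 0.0339. In these runs the rest of the reduced group was measured against fewer libraries, so the distances of the groups are not fully alike.

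The number of genes listed at 0 moved with the spread. It was 4848 to 7532 in IUO, median 6484, and 4939 to 5926 in SAL, median 5418 (exact permutation p = 0.0294, Benjamini-Hochberg 0.0441). The 5 IUO libraries above every SAL library in this count were also above every SAL library in distance. For the 9092 genes with a mean of at least 5 FPKM the distance was 0.387 to 0.640 in IUO. In SAL it was 0.364 to 0.442 (exact permutation p = 0.0139, approximate as above). The part of sequencing depth in this spread was not tested, since the read numbers are unknown. The spread was not larger in every list. The within-group SD was larger in IUO for 100% of genes encoded in mitochondrial DNA (medians 0.491 and 0.126) and 93.8% of clock genes, but for 25.6% of cytosolic ribosomal protein genes and 30% of cortical markers.

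**Figure D5:**
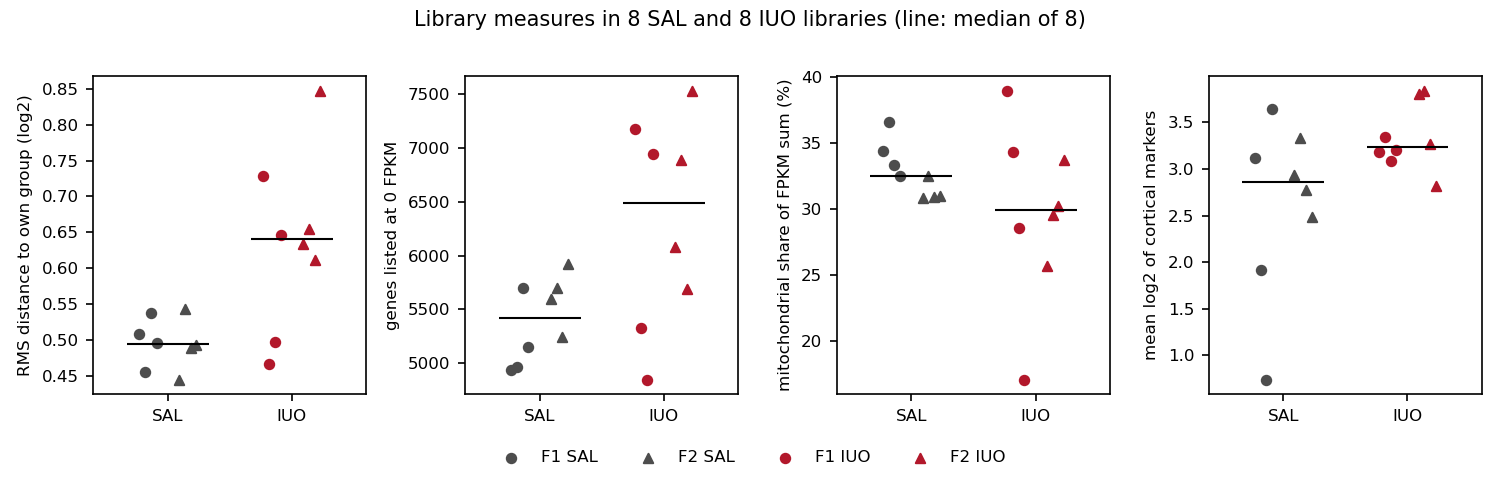
Values for each of the 8 SAL (grey) and 8 IUO (red) libraries, circles for F1, triangles for F2 and a line at the median of 8: distance to the own group (log2 scale), genes listed at 0 FPKM, mitochondrial share of the FPKM sum in percent and mean log2 level of cortical markers. IUO distances reach 0.847 against at most 0.543 in SAL, and the low end of the cortical marker level is held by F1 SAL libraries.

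Whether the IUO effect differed between generations was tested as an interaction. Y-linked genes summed to more than 10 FPKM in 1 of 4 F1 IUO and 4 of 4 F1 SAL libraries. In F2 that was 3 of 4 IUO and 0 of 4 SAL. The interaction is thus partly confounded with the Y-linked level, also where its p is given for single genes. By limma 0 genes (0%) had an adjusted p under 0.05, the smallest being 0.695, and 716 (5.28%) had an unadjusted p under 0.05. Among the 30 genes named by p and fold only P2ry12 had an unadjusted interaction p under 0.05. Of the list genes named for p under 0.05, Gnal, Gpr17, Tagln and Atp5po also had one, each with an adjusted limma p of 0.866. Their interactions (F2 minus F1 effect) were -0.53, -0.69, -0.80 and 0.44 on the log2 scale, in that order. A p that misses the threshold does not show that the effect was equal in F1 and F2.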

How the data were processed

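NAc RNA of 16 P14 pups was analysed, 4 each of F1 IUO, F2 IUO, F1 SAL and F2 SAL. The files deposited by the authors give FPKM from StringTie for each gene, computed once a joint transcriptome had been built from the samples. The submitters' processing notes also name HISAT2, SAMtools and edgeR. The genome build is not given in the sources used here, so no positions are printed, and counts were not used. FPKM is scaled within a library and was not rescaled. Its values are rounded to 0.01 and carry no read numbers, so counting error is unknown.

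Genes with at least 1 FPKM in 8 or more libraries were tested with limma 3.58.1 (R 4.3.3) on log2(FPKM + 0.1), with generation and exposure as factors, eBayes with a trend and two-sided p. Fold changes on this scale understate low genes. Adjustment was by Benjamini-Hochberg over all genes tested. The interaction was tested in a second fit. Single values, the named genes included, were also tested by two-sided exact permutation over 4900 relabellings within generations (Python 3.11.15, numpy 2.4.6, pandas 2.3.3, scipy 1.17.1), and figures were drawn with matplotlib 3.10.9. The fits were tested on simulated data.

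Named genes were the 15 with the smallest p past p under 0.05 and 1.5-fold in each direction, without placeholder names, the genes the study names, and up to 4 genes with p under 0.05 of each list. The values of 1 gene that the rule names are not reported here. The comparison, the members and the lists were chosen with earlier results of these data known. Alternatives were a pseudocount of 1, 3 other filters, upper-quartile rescaling, all 24 libraries, a replicate block, covariates of Y-linked genes, hypothalamus or cortical markers, robust eBayes, library weights, a 2-fold limit and leaving out each library. The cortical covariate and the weights were added after seeing the data. Postnatal exposure libraries entered only the fit of 24.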

Additional observations from a re-analysis of the deposited data

Results flagged for a closer look

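In groups of 8 libraries the highest or lowest value was compared with the range of its group by Dixon's ratio at its 95% limit. Of 150 groups examined (named genes and 4 library measures, IUO and SAL apart), 4 exceeded it, where chance sets about 1 in 20 apart, or 7.5 of 150. Nos1 was 1.02 FPKM in F2 IUO replicate 4 and 3.11 to 6.12 FPKM in the other IUO libraries (ratio 0.614 on the log2 scale). Mir212 was 0.17 FPKM in F1 SAL replicate 2 and 0.93 to 2.83 FPKM in the other SAL libraries (ratio 0.562). Mirlet7b was 9.63 FPKM in F2 IUO replicate 2 and 1.80 to 3.80 FPKM in the other IUO libraries (ratio 0.56). Hba-a2 (ENSRNOG00000029886) was 56.0 FPKM in F1 SAL replicate 4 and 9.18 to 21.0 FPKM in the other SAL libraries (ratio 0.544). These 4 values fell in 4 different libraries.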

How the results depend on the processing

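The 204 genes past p and fold (71 higher, 133 lower) were 102 (45, 57) with a pseudocount of 1, 682 (124, 558) with no filter beyond a value above 0, 533 (114, 419) with at least 0.1 FPKM in 8 libraries, 71 (37, 34) with a mean of at least 5 FPKM and 74 (28, 46) at 2-fold. Unadjusted counts of 1071 were 1671 with no filter. The adjusted count of 0 was 5 with no filter and 1 with the 0.1 FPKM filter. These 5, chosen after their values were seen, were unnamed or predicted genes (AABR07014547.1, AABR07009105.1, AABR07063288.1, AABR07002784.2 and RGD1562378) with IUO medians of at most 0.035 FPKM, and AABR07014547.1 was the single one under both filters. Without single libraries the adjusted count was 0 throughout. The unadjusted count ran from 770 (without F2 SAL replicate 3) to 1416 (without F1 IUO replicate 1). The count past p and fold ran from 156 to 273, with 59 to 98 higher and 88 (without F2 SAL replicate 3) to 193 lower. The interaction count was 0 to 1, the 1 being Zfp622 without F2 SAL replicate 1.

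Of 77 genes followed, 24 lost p under 0.05 with the cortical covariate, though in 17 of these the log2 fold change moved by less than 0.1, and Oxt gained it. With robust eBayes 0 lost it. Of genes that had not passed, Pdyn turned to -0.00427 with upper-quartile rescaling and to between -0.154 and -0.00236 without 7 single libraries (highest value with a library left out 0.123), Tcf7l2 to -0.145, -0.113 or -0.0272 without 3 (highest 0.458) and Hcrtr1 to -0.0204 without 1 (highest 0.260), on the log2 scale. Nptx2 turned to -0.0312 with the cortical covariate. Mir132 turned to -0.00164 with rescaling, -0.0297 with the hypothalamus covariate, -0.464 with the cortical covariate and between -0.372 and -0.0479 without 8 single libraries (highest 0.420).

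Same-numbered libraries did not deviate together: within a generation the 8 correlations of paired deviations ran from -0.105 to 0.170, and 5 of 16 libraries correlated best with their own number. With the replicate block 0 genes passed adjustment, 1065 had unadjusted p under 0.05 and 214 passed p and fold (73 higher, 141 lower). Depth limits are unknown, since FPKM holds no read numbers.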
